A study of Pan troglodytes with 8 samples.

Results

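The regions described here are stretches of accessible chromatin whose closest gene in the deposited annotation is a microRNA gene, among regions measured by bulk ATAC-seq in sorted cells of chimpanzee cerebral organoids. A region was taken when it had a chimpanzee coordinate, when its closest gene carried a microRNA symbol (MIR or MIRLET followed by a number, microRNA host genes included) and when the distance to that gene was at most 50000 bp. This rule, which uses no accessibility value, gave 4719 regions of 1167 microRNA genes, out of 211348 regions in all and of 155782 that lay within the same distance of their closest gene. The groups were neurons (N), basal intermediate progenitors (bIP) and, as aRG and bRG, the apical and the basal radial glia, each with 2 libraries, sorted by flow cytometry at week 8 of culture from organoids of 1 chimpanzee induced pluripotent stem cell line, SandraA. All groups share that line and no treatment separates them. Nothing in the labels says whether the libraries numbered 1 and 2 of a population came from separate cultures, so p-values measure only the spread between these libraries, which may be technical. With 1 line, nothing here speaks for other chimpanzees.

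MicroRNAs are short RNAs cut from hairpin transcripts that guide Argonaute proteins to matching sites in messenger RNAs, which are then translated less or degraded. Many microRNA genes lie in introns of protein-coding genes or in non-coding host transcripts, and several have near-identical copies at distant places in the genome. In the developing cortex miR-9 and miR-124 are the best known members: miR-9 is made in progenitors and neurons and represses regulators of progenitor cells, and miR-124 is the abundant microRNA of neurons. ATAC-seq reads the accessibility of DNA near these genes and does not measure the microRNAs themselves.

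Library totals lay between 24913928 and 34845193 counts, and the microRNA regions took 2.22% to 2.43% of them. Accessibility is given as CPM, counts scaled to library size, for single regions relative to all regions, and for a locus as the sum over the regions of a gene, relative to all regions within 50000 bp of a gene, so the scales differ a little. At the marker loci of the sorted cells, all 5 of radial glia fell in N against aRG, the 4 of intermediate progenitors gave 1 rise and no fall in bIP against aRG, and the 5 of neurons gave 3 rises and 1 fall in N against aRG. The mean at SOX2, a radial glia factor, was 129 CPM in aRG and 25.4 CPM in N, and at NEUROD2, a neuronal factor, it was 24.9 CPM in aRG and 187 CPM in N. BCL11B, named in the labels for the neuron sort, was not higher in neurons, with means of 73.0, 89.7 and 60.4 CPM in aRG, bIP and N. The neuronal tubulin locus TUBB3 fell (119 CPM in aRG, 95.8 CPM in N), and TBR1, of deep-layer neurons, had a higher mean in bIP (92.2 CPM) than in N (62.1 CPM) or aRG (38.0 CPM). Of the 4 interneuron loci 3 fell in N against aRG, DLX1 among them (71.9 CPM in aRG, 13.1 CPM in N), and GAD1 was not called (22.0 and 24.7 CPM); their sum was 213 to 251 CPM in aRG, 206 to 207 CPM in bRG, 160 to 168 CPM in bIP and 104 to 111 CPM in N. Of 3 mesodermal and blood loci 1 was tested, COL1A1, which fell (27.1 and 12.6 CPM), as did the 1 tested of 3 hindbrain loci. The part of these cells in the results below was not tested. In such bulk libraries, fewer cells with an open region and less opening per cell cannot be told apart.

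The microRNA regions were mostly distal. Of the 4719, 212 overlapped the gene start, 1842 lay within 10000 bp of it and 2665 lay farther off, with a median distance of 12373 bp. The region nearest to the limit was 49995 bp away and the nearest one left out was 50033 bp away. A further 1731 regions had a microRNA as closest gene beyond the limit. Within 1 bp, the distances pointed to a single human hg38 position for 836 of the 840 microRNA genes for which this could be checked, counting regions beyond the limit too, and are read as distances from the start of the human gene. Median width was 850 bp, against 868 bp for all regions within 50000 bp of a gene. Host genes with symbols ending in HG accounted for 152 regions of 46 genes, the let-7 family for 19 regions of 6 genes, and 1 region belonged to an antisense gene, MIR1-1HG-AS1. Most genes had few regions: 339 had 1, 104 had 10 or more, and the highest number was 27.

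Overlap with the 4 deposited peak lists, one for each population, differed modestly from that of other regions near genes. Of the microRNA regions, 16.9% (95% Wilson interval 15.9 to 18.0) overlapped a peak in all 4 lists, against 20.4% (20.2 to 20.6) of all regions within 50000 bp of a gene. Only the bIP list held a peak for 5.34% (4.73 to 6.02), against 4.55% (4.45 to 4.65), and only the N list for 10.2% (9.34 to 11.1), against 10.5% (10.4 to 10.7). The gap was widest at gene starts, where 103 of 212 microRNA regions (48.6%) had a peak in all 4 lists, against 74.6% of 16426 regions over the start of any gene.

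Between the radial glia populations no microRNA region and no microRNA locus passed the test. Of the 4719 regions, 4445 passed the filter on low counts and were tested with edgeR's quasi-likelihood test, with Benjamini-Hochberg adjustment over all 198227 regions tested. In bRG against aRG, edgeR called 0 of 4445 (background 0.0% of all regions), with 110 at an unadjusted p under 0.05 (2.47%, against 2.64% of all regions). DESeq2 also called 0, with 58 (1.30%, against 1.18% of all regions) at an unadjusted p under 0.05, and at locus level edgeR called 0 of 1146, with 19 unadjusted. At the miR-9 loci, for example, the libraries of both radial glia overlapped or lay close: the MIR9-3 sum was 364 and 368 CPM in aRG and 367 and 375 CPM in bRG.

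From radial glia to intermediate progenitors more microRNA regions opened than closed, and from intermediate progenitors to neurons slightly more closed than opened. In bIP against aRG, 1219 of 4445 rose (27.4%, background 24.5%) and 871 fell (19.6%, background 22.6%), and the median log2 fold change was 0.17, against 0.05 over all regions tested. For bIP against bRG the numbers were 1129 up (background 22.4%) and 819 down (background 20.4%). In N against bIP, 1008 rose (22.7%, background 25.0%) and 1104 fell (24.8%, background 22.6%), with a median of -0.15, against -0.01 for all regions. In N against aRG, 1638 rose (36.9%, background 37.2%) and 1360 fell (30.6%, background 31.7%), and N against bRG gave 1641 (background 37.5%) and 1323 (background 30.4%). These comparisons share libraries, so the bIP values enter several of them. In either direction, 47.0% of the microRNA regions were called in bIP against aRG (background 47.2%), 43.8% in bIP against bRG (background 42.9%) and 47.5% in N against bIP (background 47.6%). The shares were 67.4% in N against aRG (background 69.0%) and 66.7% in N against bRG (background 67.9%). These shares lie near the background, so the counts are not a result about microRNA regions.

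**Figure D1:**
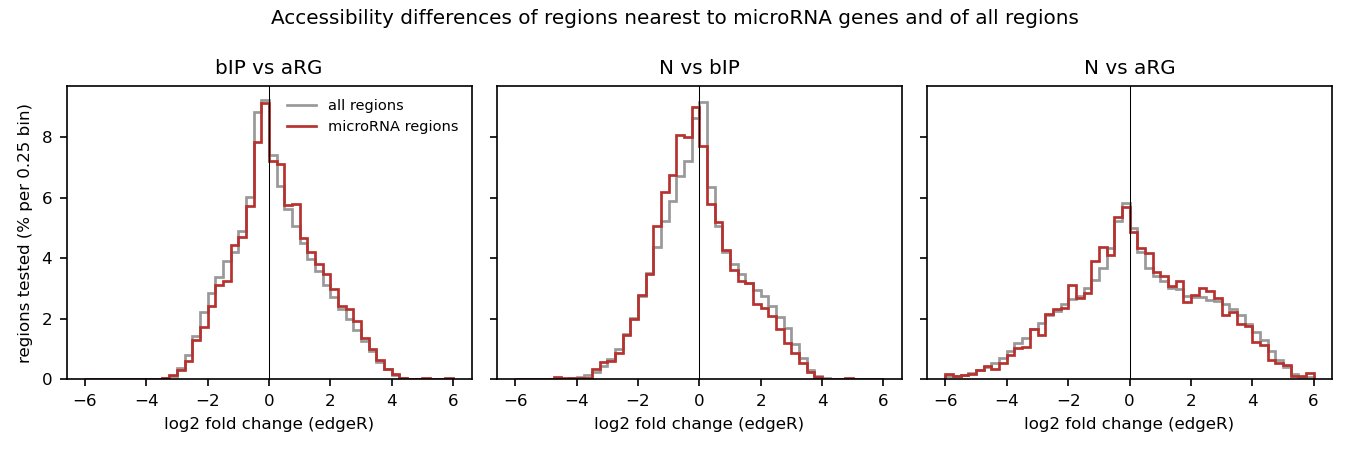
Log2 fold changes (x axis, edgeR) of the 4445 tested microRNA regions (red) and of all 198227 tested regions (grey), as the percentage of each set per bin (y axis), for bIP against aRG, N against bIP and N against aRG. The red outline lies slightly to the right of the grey one in bIP against aRG (medians 0.17 and 0.05), slightly to the left in N against bIP (-0.15 and -0.01) and on top of it in N against aRG (0.14 and 0.13).

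A joint test over the 4 populations called 3243 of 4445 microRNA regions (73.0%, background 73.5%). The fitted level was highest in N for 40.4% of these, in aRG for 23.4%, in bIP for 22.1% and in bRG for 14.1%, against 43.1%, 25.7%, 17.3% and 14.0% of all regions called. Summed by gene, 1146 microRNA loci were tested among 40354 loci, and the joint test called 802 of them (70.0%, background 63.5%). In bIP against aRG 338 rose (29.5%, background 21.9%) and 196 fell (17.1%, background 18.5%). In N against bIP 242 rose (21.1%, background 20.5%) and 282 fell (24.6%, background 19.4%), and in N against aRG 404 rose (35.3%, background 32.7%) and 317 fell (27.7%, background 28.1%).

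Regions over microRNA gene starts included both risers and fallers. In bIP against aRG, 19.1% of 209 tested start regions rose and 30.1% fell, against 7.05% and 35.2% of 16146 regions over the start of any gene. In N against aRG the shares were 20.1% and 39.2%, against 11.1% and 41.5%, and the median size of the log2 fold change was 0.66, against 0.41. Beyond 10000 bp the 2 sets were close: 40.2% of 2484 microRNA regions rose and 29.1% fell in N against aRG, against 39.7% and 30.9% of 80638 regions. A microRNA gene start is the start of the annotated hairpin or host gene and is often not where its transcript begins.

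**Figure D2:**
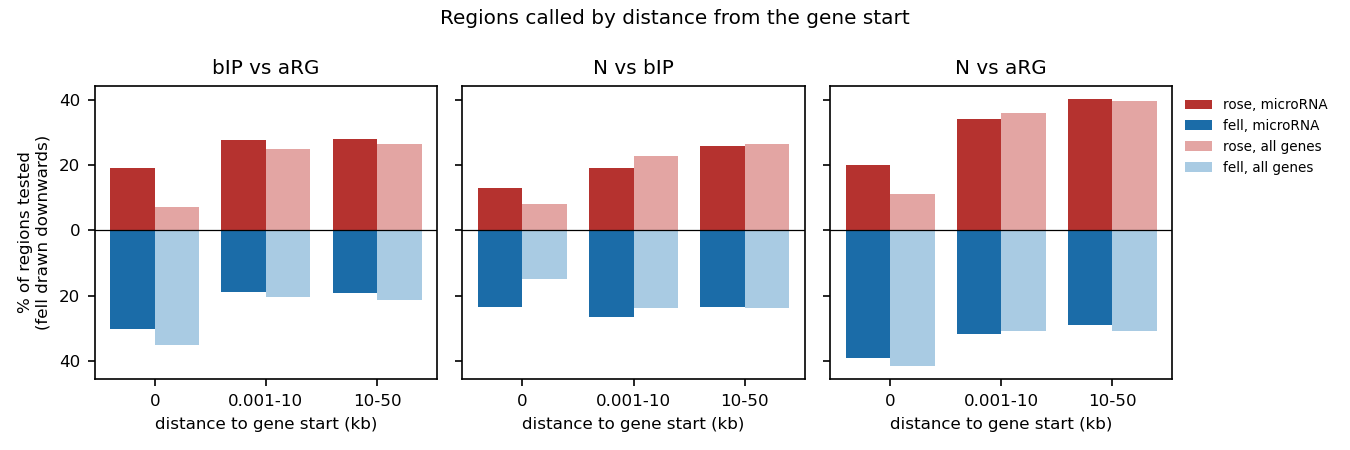
Percentage of tested regions that rose (upwards) and fell (downwards) at an edgeR adjusted p under 0.05 in 3 comparisons, by distance to the start of the closest gene, for microRNA regions (dark) and all regions within 50000 bp of a gene (pale). At distance 0, 19.1% of microRNA regions rose in bIP against aRG, against 7.05% of all start regions.

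Regions of the same microRNA gene could move in opposite directions, as they did at other genes. Of 793 genes with at least 2 tested regions, 386 (48.7%) held both a risen and a fallen region in N against aRG, 246 (31.0%) in bIP against aRG and 248 (31.3%) in N against bIP. Over all 28296 genes with as many tested regions the shares were 45.4%, 28.2% and 27.4%. A locus sum therefore follows its largest regions, and the regions are given beside it where a result turns on them.

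The 3 loci of miR-9, which represses progenitor regulators such as NR2E1 and HES1, all lost accessibility from radial glia to neurons. At MIR9-3 the sum over 16 regions was 364 and 368 CPM in aRG, 367 and 375 CPM in bRG, 231 and 273 CPM in bIP, and 156 and 141 CPM in N. Every neuron library was below every progenitor library, with a log2 fold change in N against aRG of -1.30 (SE 0.11, edgeR adjusted p 1.9e-05). At MIR9-1 (10 regions) the libraries read 270 and 266 CPM in aRG, 258 and 257 CPM in bRG, 187 and 209 CPM in bIP, and 160 and 145 CPM in N, a log2 fold change of -0.81 (SE 0.10). The MIR9-2 sum (5 regions) was 240 and 207 CPM in aRG, 218 and 210 CPM in bRG, 178 and 190 CPM in bIP, and 137 and 106 CPM in N, a log2 fold change of -0.88 (SE 0.13). At all 3 the bIP libraries lay between the radial glia and the neurons, but bIP against aRG was not called at MIR9-2 (-0.28). That difference was called with loess offsets (-0.26) and with regions within 10000 bp only (-0.35). With offsets fitted by loess, the differences in N against aRG were -0.39 at MIR9-1, -0.50 at MIR9-2 and -0.82 at MIR9-3, all still called. Over regions within 10000 bp only, MIR9-1 stood at -1.33 and MIR9-3 at -0.71 in N against aRG, and MIR9-3 was no longer called in bIP against aRG (-0.16). The step from bIP to N at MIR9-1 was -0.37 (SE 0.10), lost its call without N replicate 2 (-0.30) and turned to 0.038 with loess offsets, and at MIR9-2 it was -0.60 (SE 0.13) and shrank to -0.24, no longer called, with the same offsets.

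The fall at the miR-9 loci was spread over several regions: in N against aRG, 5 of 10 tested regions fell and 1 rose at MIR9-1, 4 of 5 fell and 1 rose at MIR9-2, and 10 of 16 fell and none rose at MIR9-3 (background 31.7% fell, 37.2% rose). At MIR9-3 the region over the start (chr15:67926456-67927289, panTro6) read 21.4 and 19.8 CPM in aRG and 15.7 and 16.7 CPM in N, a log2 fold change of -0.35 (SE 0.15) that was not called. A region 20766 bp away (chr15:67947870-67949600) read 66.9 and 55.2 CPM in aRG, 61.5 and 53.3 CPM in bRG, 17.7 and 27.9 CPM in bIP, and 4.41 and 3.10 CPM in N. Its log2 fold change in N against aRG was -4.01 (SE 0.23, edgeR adjusted p 7.1e-08), and its peak was in the lists of all populations except N. At MIR9-2 the steepest fall was in a region 2773 bp away (chr5:26271552-26272053), with 33.1 and 26.5 CPM in aRG, 9.70 and 12.9 CPM in bIP, and 4.41 and 4.01 CPM in N, a log2 fold change of -2.82 (SE 0.19). The region 591 bp from that start was at -0.40 (SE 0.15), and lost its call without aRG replicate 1 (-0.28) or N replicate 2 (-0.24), and turned to 0.12 with loess offsets. At MIR9-1 a wide region 8843 bp away (chr1:131234057-131236368) went from 102 and 105 CPM in aRG to 30.5 and 25.2 CPM in N, a log2 fold change of -1.89 (SE 0.14). The host gene MIR9-3HG had its highest values in bIP: its 3 regions summed to 61.1 and 63.0 CPM in aRG, 60.7 and 59.8 CPM in bRG, 76.0 and 76.8 CPM in bIP, and 60.9 and 48.2 CPM in N. It was not called in N against aRG (-0.18, SE 0.11; -0.37 without N replicate 1) and fell from bIP to N (-0.48, SE 0.11). In bIP against aRG it was not called (0.30), but was with loess offsets (0.33) and with regions within 10000 bp only (0.30). A region 14173 bp from MIR9-1 rose by 0.78 (SE 0.18) in N against aRG, and a region 7172 bp from MIR9-3 was highest in bIP, at 9.78 and 11.9 CPM, against 4.94 and 4.33 CPM in aRG and 2.70 and 2.79 CPM in N.

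**Figure D3:**
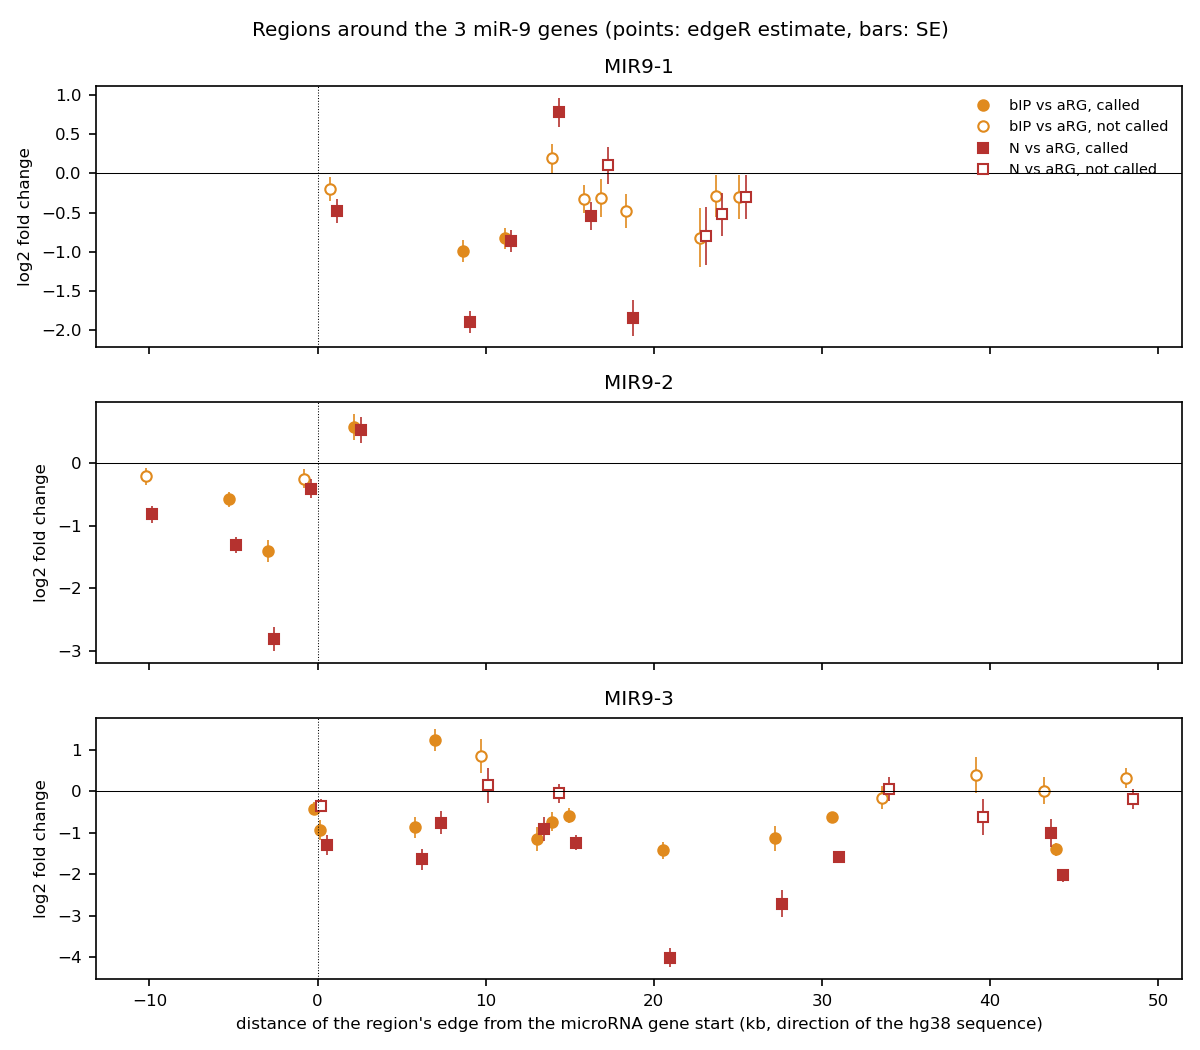
Log2 fold changes of each tested region around MIR9-1, MIR9-2 and MIR9-3 (y axis; points are edgeR estimates, bars are SE, filled points were called) against the distance of the region's edge from the gene start (x axis, kb, in the direction of the hg38 sequence), for bIP against aRG (orange) and N against aRG (red). Most filled points lie below 0, and the lowest, at -4.01, is the MIR9-3 region 20766 bp from the start.

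At the loci of miR-124 neurons had higher values than aRG, and only MIR124-3 also rose from bIP to N. At MIR124-1 the sum over 4 regions was 32.3 and 29.2 CPM in aRG, 34.7 and 27.1 CPM in bRG, 76.2 and 78.1 CPM in bIP, and 62.9 and 64.9 CPM in N. The values were already higher in bIP, with a log2 fold change against aRG of 1.33 (SE 0.12, edgeR adjusted p 0.00013). N against bIP was -0.27 (SE 0.12), not called, and -0.35, called as a fall, with regions within 10000 bp only. At MIR124-3 the 3 regions summed to 21.3 and 28.5 CPM in aRG, 30.2 and 29.6 CPM in bIP, and 45.7 and 48.6 CPM in N, a log2 fold change in N against aRG of 0.92 (SE 0.17, edgeR adjusted p 0.0013). Its step from bIP to N was 0.66 (SE 0.17), and lost its call without bIP replicate 1 (0.67), bIP replicate 2 (0.58) or N replicate 2 (0.61). MIR124-2 read 10.1 and 13.3 CPM in aRG and 17.5 and 20.2 CPM in N, a log2 fold change of 0.68 (SE 0.24). Its call was lost under 7 of the 14 alternatives (lowest value 0.49, without aRG replicate 1). MIR124-2 was at 0.73 in bIP against aRG, a call kept under 9 of 14 alternatives, and at -0.05, not called, in N against bIP. Regions over gene starts were among those that rose. The region over the MIR124-1 start read 24.5 and 21.7 CPM in aRG, 48.2 and 50.7 CPM in bIP and 34.2 and 31.6 CPM in N, a log2 fold change in N against aRG of 0.51 (SE 0.14) that lost its call with the DESeq2 test (0.41) and without aRG replicate 2 (0.41). The region over the MIR124-3 start (chr20:62876144-62878845) read 13.2 and 19.7 CPM in aRG and 31.7 and 35.8 CPM in N. A region 4180 bp from MIR124-3 fell over the same span, from 5.56 and 5.54 CPM in aRG to 1.58 and 1.49 CPM in N. The only region assigned to the host gene MIR124-2HG fell by 0.61 on the log2 scale (SE 0.16, edgeR adjusted p 0.0099 and 0.063 without N replicate 1).

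Over the whole list of 29 tested loci of neuron-enriched and neurogenic microRNAs, neurons were not uniformly more open. In N against aRG 8 rose (27.6%, background 32.7%), 10 fell (34.5%, background 28.1%) and 11 were not called, with a median of 0.10, against 0.05 over all loci. In bIP against aRG 7 rose (24.1%, background 21.9%) and 4 fell (13.8%, background 18.5%), and in N against bIP 5 rose (17.2%, background 20.5%) and 9 fell (31.0%, background 19.4%).

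Among the risers was MIR137, the gene of a brain microRNA that acts on neuronal maturation, with 16.6 and 18.1 CPM in aRG, 26.0 and 23.3 CPM in bIP, and 34.1 and 36.0 CPM in N. Both bIP libraries lay above those of aRG and both N libraries above those of bIP, and the log2 fold change in N against aRG was 1.01 (SE 0.13, edgeR adjusted p 0.0002). The rise lay in a region 2025 bp from the start (chr1:96856068-96857989; 1.01, SE 0.17), whereas the region over the start did not pass (0.40, SE 0.27). At MIR129-2, a brain-enriched microRNA gene, 64.4 and 64.7 CPM in aRG became 105 and 99.3 CPM in N. MIR212, a gene of the activity-induced miR-132/212 pair, rose by 1.56 (SE 0.31) from a low level of 0.705 and 0.519 CPM. The region of its partner MIR132 stood at 43.3 and 42.7 CPM in aRG and 40.6 and 39.6 CPM in N. MIR212 and MIR132 each rest on 1 tested region, assigned by closest gene, and the difference between them was not tested.

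MIR218-1, one of the miR-218 genes, showed the sharpest late opening of the list. Its 10 regions summed to 39.7 and 29.2 CPM in aRG, 38.5 and 28.4 CPM in bRG, 33.3 and 20.8 CPM in bIP, and 88.8 and 76.0 CPM in N. The N libraries stood apart from all others, with log2 fold changes of 1.61 against bIP (SE 0.24, edgeR adjusted p 0.0014) and 1.26 against aRG (SE 0.24). No sum over regions within 10000 bp could be tested at this locus. A pair of distant regions made most of the difference. The region 39255 bp away (chr4:20042944-20043794) went from 0.588 and 0.630 CPM in aRG through 6.03 and 2.15 CPM in bIP to 22.3 and 17.9 CPM in N. The region 42558 bp away (chr4:20046271-20047213) went from 0.353 and 0.294 CPM to 17.4 and 14.3 CPM, log2 fold changes of 5.04 (SE 0.47) and 5.59 (SE 0.50). The other regions did not all follow: of the 10, 5 rose and 4 fell in N against aRG.

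The fallers on the list included other well-known neuronal microRNAs. MIR128-1, of the brain-enriched miR-128, was lowly accessible and fell from 4.19 and 3.49 CPM in aRG to 0.549 and 0.485 CPM in N, a log2 fold change of -2.87 (SE 0.34, edgeR adjusted p 0.00011). Its second copy, MIR128-2, was not called (0.59, SE 0.23, edgeR adjusted p 0.052) but was called in 6 of 14 alternatives, with values from 0.54 to 0.97, and its 11 regions ran in both directions, from -4.66 (SE 0.72) at a region 40540 bp away to 3.46 (SE 0.34) at a region 15142 bp away. The paired genes of miR-138, a regulator of dendritic spines, also differed: MIR138-2 fell by 1.54 (SE 0.17; -0.91 with regions within 10000 bp only), while MIR138-1 was at 0.12 (SE 0.28). MIR7-2, of the brain and endocrine miR-7, read 41.7 and 39.3 CPM in aRG and 17.6 and 8.68 CPM in N (log2 fold change -1.61, SE 0.26), and MIR7-3HG, host of another copy, rose by 0.73 (SE 0.13). Of the other miR-7 genes, MIR7-1 also fell (-0.90) and MIR7-3 was not called (0.33). The difference between copies of a microRNA was not tested.

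**Figure D4:**
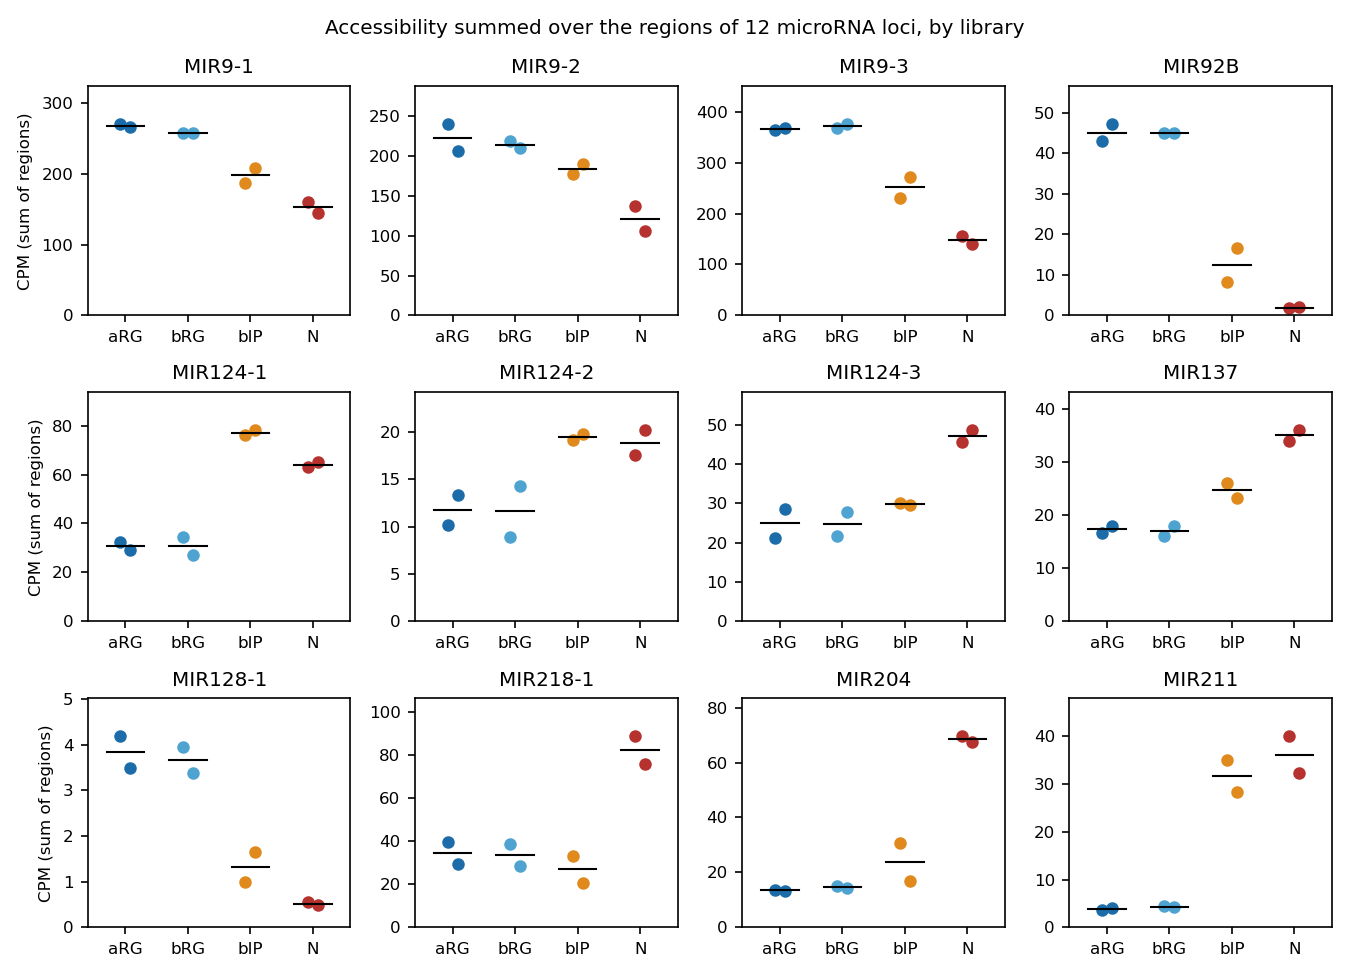
Locus sums in CPM (y axis, from 0) in each of the 8 libraries, grouped by population (x axis), for 12 microRNA loci; points are libraries and bars are means of 2. The means of the miR-9 loci and MIR92B step down from radial glia to bIP to N, though bIP against aRG was not called at MIR9-2. MIR124-1 and MIR211 are already high in bIP, and MIR218-1 and MIR204 are highest in N.

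MIR92B, a microRNA gene of neural progenitors, gave the largest fall among the listed loci. Its single region, 692 bp from the gene (chr1:129995702-129996503), had a locus value of 43.0 and 47.1 CPM in aRG, 44.9 and 45.1 CPM in bRG, 8.18 and 16.6 CPM in bIP, and 1.76 and 1.99 CPM in N. Both bIP libraries lay below all radial glia libraries and both N libraries below bIP, and the log2 fold changes were -1.86 (SE 0.27) for bIP against aRG and -4.59 (SE 0.32, edgeR adjusted p 9.9e-06) for N against aRG. Of the 6 tested loci listed for proliferation and pluripotency, MIR21 also fell (from 2.91 and 3.91 CPM in aRG to 0.705 and 0.969 CPM in N), and MIR106B, which lies in the replication gene MCM7, rose from 1.63 and 1.51 CPM to 8.50 and 6.20 CPM. MIR17HG, host of the miR-17 to miR-92a cluster, stood at 87.5 and 73.7 CPM in aRG and 70.0 and 73.0 CPM in N (-0.17, SE 0.12) and was not called. MIR302D, of a pluripotent cell cluster, was near the detection limit, at 0.485 and 0.377 CPM in aRG and 0.274 and 0.388 CPM in N.

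The loci of let-7 and of the miR-99/100 and miR-125 families, which often share a transcript with let-7 and rise in differentiating cells, gave more falls than rises. Of 13 tested, 2 rose (15.4%, background 32.7%) and 7 fell (53.8%, background 28.1%) in N against aRG, with a median log2 fold change of -0.55, against 0.05 over all loci. Among the falls, MIRLET7A3 (-0.92) and MIRLET7B (-0.75) lost their calls without aRG replicate 1 (-0.75 and -0.60) or N replicate 2 (-0.58 and -0.56), and MIRLET7A2 (-2.26) with regions within 10000 bp only (-0.68). MIR125B1 read 102 and 102 CPM in aRG, 75.7 and 79.9 CPM in bIP, and 66.6 and 68.6 CPM in N (-0.60, SE 0.08). MIR99A read 61.2 and 55.0 CPM in aRG and 38.5 and 28.5 CPM in N (-0.79, SE 0.14). MIR100 was the clearest exception, with 28.7 and 28.8 CPM in aRG, 33.0 and 29.5 CPM in bIP, and 55.7 and 65.2 CPM in N, a log2 fold change of 1.07 (SE 0.11, edgeR adjusted p 5.8e-05; 2.19 with regions within 10000 bp only). Its 8 tested regions did not move together. In N against bRG 1 rose and 4 fell, from -3.13 to 1.98, and in N against bIP 2 rose and 0 fell.

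On chimpanzee chromosome 21 the let-7c and miR-125b-2 genes held regions that switched in opposite directions within short distances. A region 1466 bp from MIRLET7C (chr21:3450153-3450790) fell from 4.82 and 3.57 CPM in aRG to 0.342 and 0.314 CPM in N, a log2 fold change of -3.66 (SE 0.36). Another, 19246 bp away (chr21:3467216-3468646), rose from 0.509 and 0.462 CPM to 5.87 and 6.60 CPM, a log2 fold change of 3.67 (SE 0.35). The locus sum of MIRLET7C, 0.69 (SE 0.21), balances these. It lost its call without aRG replicate 2 (0.52), without N replicate 2 (0.59) and with loess offsets (0.35), and turned to -3.51 when only regions within 10000 bp were summed. MIR125B2 held a region 4248 bp away (chr21:3502382-3503272) that went from 17.2 and 15.2 CPM in aRG through 1.60 and 2.84 CPM in bIP to 0.869 and 0.511 CPM in N, a log2 fold change of -4.52 (SE 0.35). The sum of its 8 regions hid this, at 0.05 (SE 0.09).

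Growth-arrest and glial microRNAs gave 3 rises (17.6%, background 32.7%) and 7 falls (41.2%, background 28.1%) among 17 tested loci in N against aRG, with a median of -0.38. MIR22 fell from 5.73 and 7.17 CPM in aRG to 1.53 and 0.872 CPM in N (-2.40, SE 0.30), and its host gene MIR22HG, over another region, did not pass the test (89.4 and 93.7 CPM in aRG, 98.7 and 103 CPM in N; 0.14, and 0.36, called, with loess offsets). MIR219A1, of a microRNA of oligodendrocyte maturation, fell by 0.51 on the log2 scale (SE 0.08), from 65.1 and 64.6 CPM in aRG to 45.9 and 45.4 CPM in N. MIR146A, of a microRNA of inflammatory signalling, rose from 14.8 and 16.7 CPM in aRG to 32.7 and 48.8 CPM in N (1.37, SE 0.23; 2.95 with regions within 10000 bp only). MIR181A1 and MIR181B1 are neighbours, and each region near them was counted only for the closer gene. Their sums moved in opposite directions (-1.15, SE 0.16, and 1.77, SE 0.22). Both directions turned with regions within 10000 bp only, to 1.98 and -0.49.

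Among 24 tested loci of microRNAs known from other tissues, 8 rose (33.3%, background 32.7%) and 8 fell (33.3%, background 28.1%) in N against aRG, with a median of -0.10. The largest rises of this list were at MIR211 and MIR204, microRNAs of pigment cells and of the eye and choroid plexus. MIR211 read 3.61 and 4.10 CPM in aRG, 4.40 and 4.17 CPM in bRG, 35.0 and 28.3 CPM in bIP, and 39.9 and 32.2 CPM in N, a log2 fold change of 3.03 (SE 0.20) in bIP against aRG. Most of it came from a wide region 12068 bp away (chr15:9296795-9299561), with 1.61 and 2.35 CPM in aRG, 23.8 and 20.2 CPM in bIP, and 28.3 and 23.5 CPM in N. Without regions beyond 10000 bp the locus was no longer called (0.76 in bIP against aRG and 0.69 in N against aRG). MIR204 opened mainly in neurons, with 13.6 and 13.3 CPM in aRG, 30.6 and 17.0 CPM in bIP, and 69.6 and 67.4 CPM in N (2.34 in N against aRG, SE 0.24). Its smaller bIP difference (0.82, SE 0.23) fell to 0.33 and lost its call without bIP replicate 1. Muscle loci went both ways, with MIR133A1 at -2.85 (SE 0.33), MIR206 at 1.49 (SE 0.28) and MIR1-1HG at 1.26 (SE 0.29), the last turning to -0.65 with regions within 10000 bp only. MIR122HG, of the liver microRNA miR-122, fell (-2.17, SE 0.24), and MIR192, of a microRNA of gut and liver, rose (0.84, SE 0.26) with its call lost in 4 of 14 alternatives, the lowest 0.47 without N replicate 1. MIR217HG, a pancreatic host gene, peaked in bIP, at 15.2 and 12.4 CPM, against 3.39 and 2.08 CPM in aRG and 4.11 and 5.09 CPM in N.

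**Figure D5:**
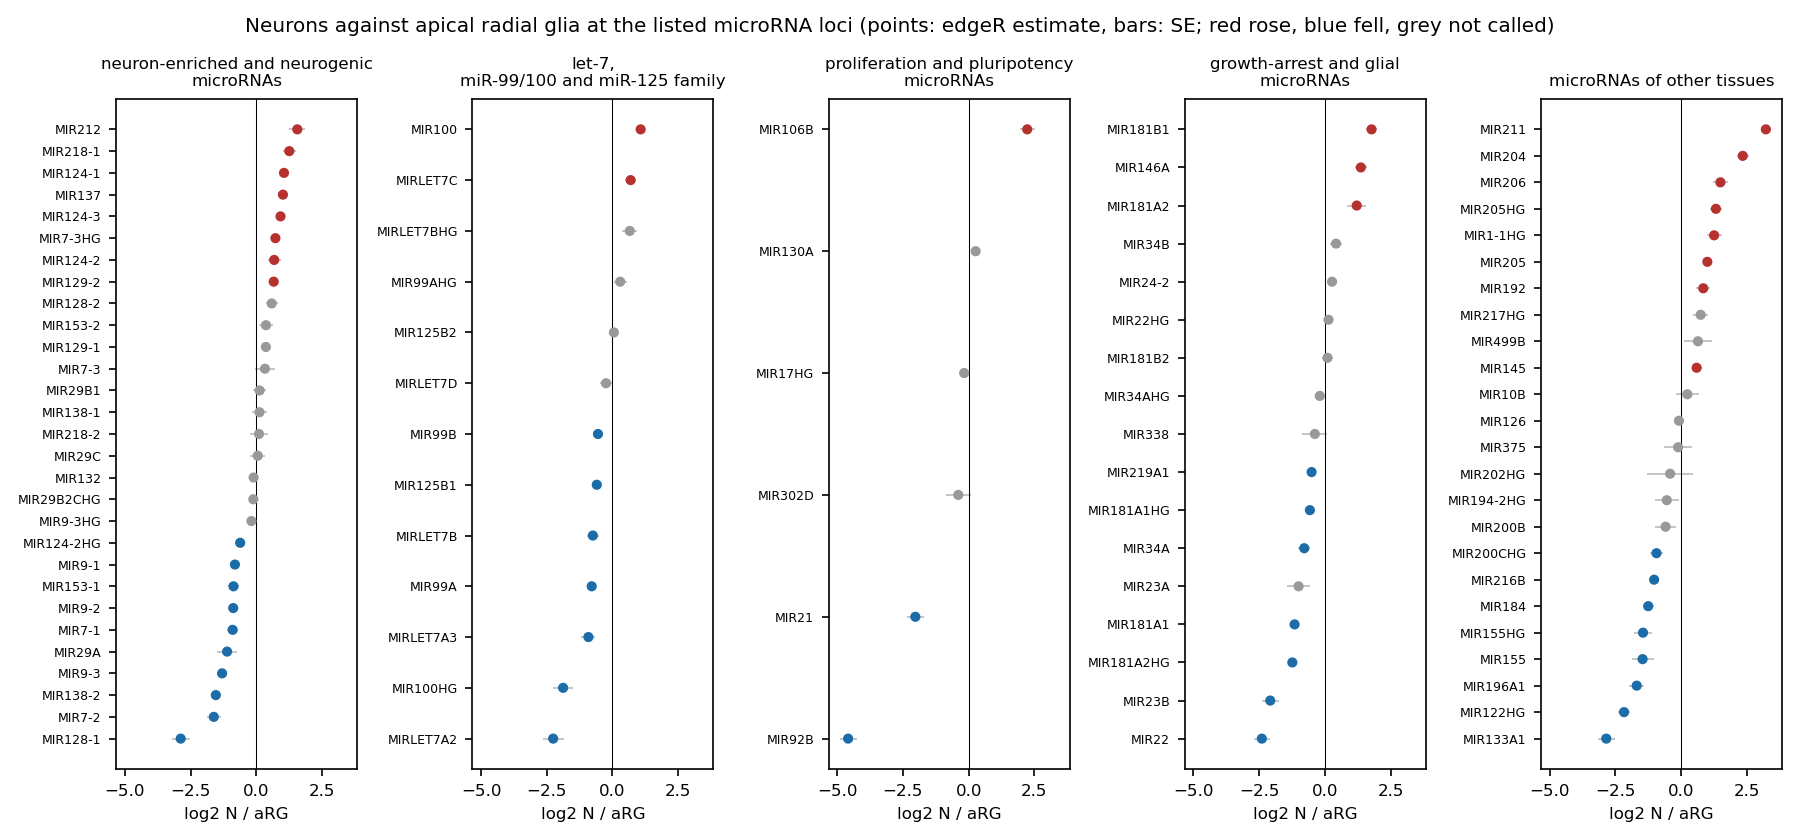
Log2 fold change of N against aRG (x axis; points are edgeR estimates, bars are SE) for every tested locus (y axis) of the 5 microRNA lists; red points rose, blue points fell and grey points were not called. Each list holds red and blue points, and the lowest is MIR92B at -4.59.

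For microRNAs in introns, the protein-coding host has a locus of its own around its start, and these pairs, chosen after their values were seen, did not always move together. In the RefSeq annotation of assembly NHGRI_mPanTro3-v2.0, MIR218-1 lies in SLIT2, a secreted guidance factor, whose own locus fell from 123 and 102 CPM in aRG to 72.7 and 61.8 CPM in N (-0.74, SE 0.14), while MIR218-1 rose. SLIT3, the host of MIR218-2, rose (1.08, SE 0.21; 0.50 to 1.27 over the alternatives, with its call not kept in every one), while MIR218-2 was at 0.10, not called. MIR128-1 fell, and its host R3HDM1 read 100 and 98.2 CPM in aRG and 93.5 and 96.9 CPM in N (-0.06, SE 0.08). ARPP21, the host of MIR128-2, rose from 23.7 and 22.1 CPM to 94.1 and 72.9 CPM (1.87, SE 0.18; 0.66 with regions within 10000 bp only). TRPM1, host of MIR211, rose with it in bIP against aRG (2.19, SE 0.20; 1.22 with regions within 10000 bp only). TRPM3, host of MIR204, was at -0.52 (SE 0.15) in N against aRG, lost its call without aRG replicate 1 (-0.41) or N replicate 1 (-0.49), and stood at 1.22 with regions within 10000 bp only.

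Among 18 tested loci of the 22 listed genes that make, load or regulate microRNAs, none rose (background 32.7%) and 5 fell (27.8%, background 28.1%) in N against aRG, with a median of -0.22. The 5 were AGO2 and AGO3, which encode Argonaute proteins, LIN28A and LIN28B, which block let-7 processing, and TUT4, which tails let-7 precursors. AGO2 was at -0.58, and at -0.92 with regions within 10000 bp only. AGO3 read 52.0 and 54.5 CPM in aRG and 30.1 and 32.5 CPM in N (-0.77, SE 0.12). LIN28B read 48.0 and 38.9 CPM in aRG and 29.5 and 30.1 CPM in N (-0.54, SE 0.13), and lost its call without aRG replicate 1 (-0.38). LIN28A, at -0.80, lost its call without aRG replicate 2 (-0.51), N replicate 1 (-0.88) or N replicate 2 (-0.73). DICER1, DGCR8 and XPO5, genes of hairpin processing and export, were not called, with log2 fold changes of -0.23 (SE 0.11), -0.26 (SE 0.15) and -0.21 (SE 0.11). DROSHA, also listed, was not among the loci tested. TNRC6B and TRIM71 dipped in bIP, at -0.50 (SE 0.08) and -0.55 (SE 0.09) against aRG, and rose from bIP to N. With regions within 10000 bp only, TRIM71 turned to 0.39 in bIP against aRG.

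Genes known as targets or partners of miR-9 and miR-124 gave 1 rise (6.67%, background 32.7%) and 9 falls (60.0%, background 28.1%) among 15 tested in N against aRG, with a median of -0.32. HES1, a Notch effector and miR-9 target, read 91.9 and 88.1 CPM in aRG, 33.3 and 47.8 CPM in bIP, and 18.5 and 15.7 CPM in N (-2.39, SE 0.17). REST, a repressor of neuronal genes, read 89.7 and 88.0 CPM in aRG and 41.9 and 44.0 CPM in N (-1.05, SE 0.09). ACTL6B, the neuronal subunit of the BAF chromatin remodeller, was the riser (11.8 and 11.1 CPM in aRG, 25.0 and 21.9 CPM in N). PTBP1, a splicing factor and miR-124 target, was not called, at 68.6 and 81.3 CPM in aRG and 69.1 and 85.0 CPM in N.

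Across all 1146 microRNA loci, the largest called changes were at genes with few regions and, mostly, little-studied microRNAs. In N against aRG the falls were led by MIR6739 (12.2 and 17.7 CPM in aRG, 0.274 and 0.388 CPM in N), MIR320C1 (75.5 and 74.8 CPM, then 1.57 and 2.04 CPM), MIR320B2 and MIR4650-2, with log2 fold changes from -5.49 to -4.78. MIR320C1 is the most accessible of these and also fell in bIP against aRG (9.78 and 23.4 CPM in bIP; -2.18, SE 0.31). The rises were led by MIR6877, MIR548AT (0.264 and 0.377 CPM, then 12.1 and 17.0 CPM), MIR3713 and MIR5583-1 (0.485 and 0.613 CPM, then 20.8 and 20.8 CPM), with log2 fold changes from 5.24 to 6.11. For MIR6739, MIR548AT and MIR3713 no sum over regions within 10000 bp could be tested. MIR6877 was at 0.0441 and 0 CPM in aRG, so its fitted fold change is imprecise. It ran from 5.28 to 8.50 over the alternatives, a spread that the SE of 0.63 does not convey. In N against bRG MIR6877 was at 3.08, and bRG stood 3.04 above aRG, not called. MIR320, MIR548 and MIR4650 are families of similar copies, and the sources used here do not give how reads that match several copies were counted. How far this affects these values is not known. The regions can lie away from the gene, and whether they match other copies was not tested.

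Of the loci that changed most from aRG to bIP, only MIR1976 was called in the opposite direction from bIP to N. In bIP against aRG the largest rises were at MIR4746, MIR1976, MIR4482 and MIR3689C (log2 fold changes 3.66 to 4.03) and the largest falls at MIR6739, MIR378D2, MIR600HG and MIR6891 (-2.54 to -2.19). From bIP to N, MIR4746 (0.79, a call kept under 6 of 14 alternatives) and MIR4482 (1.16) rose further, and MIR3689C (-0.05) was not called. MIR6739 (-2.95) and MIR600HG (-1.16) fell further, and MIR378D2 (-0.59) and MIR6891 (0.46) were not called. MIR1976 peaked in bIP: it read 1.10 and 0.802 CPM in aRG, 13.2 and 16.0 CPM in bIP, and 2.55 and 1.84 CPM in N, with log2 fold changes of 3.92 (SE 0.32) into bIP and -2.72 (SE 0.29) out of it. In N against bIP the largest falls were at MIR320B2, MIR320C1, MIR1269A and MIR4650-2, and the largest rises at MIR802, MIR548AT, MIR3713 and MIR6877. MIR802 rested on unequal N libraries, at 3.21 and 9.31 CPM.

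Single regions showed the steepest changes. In N against aRG the steepest fall was 4546 bp from MIR4475 (chr9:36771007-36771949), from 34.1 and 29.3 CPM in aRG through 3.34 and 6.83 CPM in bIP to 0.342 and 0.432 CPM in N, a log2 fold change of -6.36 (SE 0.35, edgeR adjusted p 6.1e-08). Regions near MIR4460 (chr5:107614261-107615199) and MIR622 (chr13:71497993-71499058) followed, at -5.96 (SE 0.29) and -5.93 (SE 0.40). All 3 had peaks in the radial glia lists and none in the N list. The steepest rise among the named regions with reads in every library was 15087 bp from MIR4524A (chr17:62159946-62160831), from 0.196 and 0.336 CPM in aRG through 1.56 and 1.12 CPM in bRG and 2.91 and 2.03 CPM in bIP to 22.2 and 23.3 CPM in N, a log2 fold change of 6.41 (SE 0.39). A region 1997 bp from MIR8065 (chr16:5948471-5949875) rose by 5.99 (SE 0.49). A region near MIR6079 (chr1:42607124-42607649) had 0 counts in both aRG libraries, 8 and 15 in bIP and 12 and 7 in N, at least 7.95-fold higher in bIP and at least 5.89-fold higher in N against a floor of 3 counts over the aRG group.

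Some regions were highest in intermediate progenitors. One 1651 bp from MIR2278 (chr9:66988319-66989059) read 0.548 and 0.882 CPM in aRG, 5.09 and 5.11 CPM in bIP, and 0.217 and 0.157 CPM in N, and its peak was in the bIP list only. Its log2 fold change in N against bIP was -4.71 (SE 0.41, edgeR adjusted p 1.8e-05). Regions near MIR924 and MIR1269A were also highest in bIP and fell by 4.63 (SE 0.36) and 4.54 (SE 0.44) into N. In the other direction, a region 15064 bp from MIR148A (chr7:26082496-26083493) stayed at 0.218 and 0.230 CPM in bIP and reached 2.42 and 4.24 CPM in N.

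The genes with the most regions were MIR1302-7 (27), MIR4311 (21) and MIR4798 (20). The MIR1302-7 regions summed to 130 and 112 CPM in aRG, 131 and 118 CPM in bRG, 292 and 269 CPM in bIP, and 169 and 141 CPM in N. Both bIP libraries stood above all others, with a log2 fold change against aRG of 1.21 (SE 0.12, edgeR adjusted p 0.00017), and 20 of the 27 regions rose (background 24.5%) and 2 fell (background 22.6%). In N against bIP 14 fell (background 22.6%) and 3 rose (background 25.0%). MIR4311 rose in bIP against aRG (1.25, SE 0.23) and was not called in N against bIP (-0.46, SE 0.22), with 46.4 and 43.3 CPM in aRG, 125 and 89.1 CPM in bIP, and 96.6 and 58.7 CPM in N. MIR4798, at 136 and 105 CPM in aRG and 173 and 129 CPM in bIP, was not called (0.32, SE 0.19). MIR1302-7 belongs to a family of similar copies, with the same limit on its values as above.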

How the data were processed

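The authors deposited raw counts in 1 table, with a column for each of the 8 libraries and, per the file headers, each region's closest gene and gene distance, and 1 peak list per population. Per the file headers and layout, the lists hold columns of peak strength, which were not used; only the intervals were. The submitters' processing notes name bcl2fastq 2.20.0, MACS2, panTro6 and hg38 without roles; no source used here gives the aligner or the counting method. Coordinates are panTro6, counted from 1; no column of values was left unmapped.

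Rows without a chimpanzee identifier (6725) and 7 repeats were removed. Counts were tested with edgeR 4.0.16 (quasi-likelihood, robust, TMM, filterByExpr, R 4.3.3) in a single model of the 8 libraries whose factor was the population, adjusted over 198227 regions or 40354 loci (counts summed per closest gene within 50000 bp). The procedure was tested on simulated data. A change was called, and written as a rise or fall, at an adjusted p under 0.05. Each SE is the size of the log2 fold change divided by the square root of the F statistic of the edgeR test. It is not a standard error taken from the model, and can be too small where counts are near 0. Peak overlap (at least 1 bp) used bedtools 2.31.1. Intervals and floors cover counting error only. Loci are named as members of the gene lists, as the 4 largest called rises and falls in bIP against aRG, N against bIP and N against aRG (3 for regions), and as the 3 genes with most regions. The members and lists were chosen with earlier results of these data known. Alternatives were DESeq2 1.42.0 and its size factors, loess offsets, no count filter, a replicate block, each library left out, a limit of 10000 bp and no host genes.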

Additional observations from a re-analysis of the deposited data

How the results depend on the processing

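The count of microRNA regions called stayed within 1.5 times under every scaling, test, filter and host-gene alternative. With a distance limit of 10000 bp, which leaves 1961 regions tested, 921 were called in bIP against aRG, 843 in bIP against bRG, 882 in N against bIP, 1276 in N against aRG and 1244 in N against bRG. With single libraries left out the counts ranged from 1459 to 2199 (bIP against aRG), 1298 to 2045 (bIP against bRG, the lowest without bIP replicate 1), 1506 to 2096 (N against bIP), 2554 to 3012 (N against aRG) and 2530 to 2982 (N against bRG), and stayed at 0 for bRG against aRG. A fit with the replicate number as a block called 2402, 2267, 2470, 3215 and 3172 in the same order and 0 of 4445 in bRG against aRG (184 unadjusted). The labels do not say that a number marks a shared culture; deviations of same-numbered libraries correlated at 0.12 to 0.31. Under the block MIR128-2 was called in N against aRG (0.62, edgeR adjusted p 0.0029; highest over the alternatives 0.31) and MIR4798 in bIP against aRG (0.32, edgeR adjusted p 0.0053; highest 0.78). DESeq2 size factors shifted the median of all regions by -0.10 in N against aRG and -0.12 in N against bRG.

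Of 75 named loci called in N against aRG, 54 kept their call in every alternative; of 54 in N against bIP, 29 did, and of 55 in bIP against aRG, 27 did. The limit of 10000 bp left no sum to test for MIR181A2, MIR181B2, MIR218-1, MIR3689C, MIR3713, MIR378D2, MIR548AT, MIR6739 and MIR6891. Directions turned at a limit of 10000 bp for MIR1-1HG (-0.028 in bIP against aRG, -0.65 in N against aRG, -1.36 in N against bRG), MIR125B2 (-0.37 in bIP against aRG, -0.44 in bIP against bRG, -0.36 in N against aRG), MIR1269A (-1.46 and -1.36 in bIP against aRG and bRG), MIR181A1 (0.44 in bIP against aRG, 1.54 in N against bIP, 1.98 and 1.34 in N against aRG and bRG), MIR181B1 (-0.64 and -0.64 in bIP against aRG and bRG, -0.49 and -0.48 in N against aRG and bRG), MIR216B (0.61 in bIP against aRG), MIR4798 (1.37 in N against bIP, 2.16 and 2.13 in N against aRG and bRG) and MIRLET7C (-0.65 in N against bIP, -3.51 and -3.26 in N against aRG and bRG), where fewer regions are summed. Among the protein-coding loci they turned at the same limit for CTDSP2 (-0.23), TRIM71 (0.39) and TRPM3 (0.097) in bIP against aRG, for TRIM71 (1.19) and TRPM3 (1.22) in N against aRG, and for REST (0.0066) and TRPM1 (0.23) in N against bIP. With loess offsets, MIR9-1 in N against bIP turned to 0.038, and in N against aRG so did the regions 958 bp (0.059) and 16065 bp (0.034) from MIR9-1 and 591 bp from MIR9-2 (0.12); the cause was not tested. Depth limits loci near 0.5 CPM, such as MIR302D and MIR212, and 274 microRNA regions were too low to test.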
